A study of Mus musculus with 9 samples.

Results

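The 8 receptor genes described here, which let myeloid cells follow chemical gradients, were measured in liver macrophages 24 hours after toxic injury. They are *Ccr1*, *Ccr2*, *Cx3cr1*, *Cxcr2*, *Cxcr4*, *Fpr1*, *Fpr2* and *S1pr1*. They were chosen by name, each matched 1 feature of the deposited table, and together they are 8 of its 59445 features. The cells were F4/80+ CD11b+ macrophages sorted by flow cytometry from liver non-parenchymal cells of male C57BL/6 mice. The groups were 5 libraries of MAGL Mye-/- mice (S8 to S12; S9, S10 and S11 at 10 weeks of age, S8 and S12 at 11 weeks) and 4 controls, labelled MAGL fl/fl and wild type (S1, S3, S4, S5, all at 11 weeks). Values of single libraries follow these 2 orders throughout. All mice, controls included, had received 1 intraperitoneal injection of the hepatotoxin carbon tetrachloride (CCl4), labelled as 0.6 mg/kg of body weight, so no uninjured liver serves as a baseline here. MAGL is monoacylglycerol lipase, encoded by *Mgll*, which splits the endocannabinoid 2-arachidonoylglycerol. The labels name neither the promoter that drives the deletion nor the part of the gene removed.

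Chemoattractant receptors are G protein-coupled receptors that span the membrane and signal mainly through Gi proteins to phosphoinositide 3-kinase, phospholipase C and Rac. G protein-coupled receptor kinases and arrestins then silence them and draw them into the cell. In the injured liver, CCR2 is the receptor by which Ly6C-high monocytes leave the bone marrow and enter the tissue, and CX3CR1 rises as these cells mature. CXCR4 holds cells near sources of CXCL12. CXCR2 is the main neutrophil receptor for ELR-type CXC chemokines, and the formyl peptide receptors sense bacterial and mitochondrial peptides. S1PR1 guides cells towards the sphingosine-1-phosphate of blood and lymph.

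Libraries held 35691354 to 46489349 reads in Mye-/- and 33383559 to 43884866 reads in fl/fl. Features with a read numbered 15614 to 16802 in Mye-/- and 14240 to 16385 in fl/fl, fewest in S4. S1 and S3 of fl/fl had the fewest reads of the 9 libraries, and estimates are also given without this pair. Those estimates rest on S4 and S5 alone for fl/fl. No molecular identifiers are named in the sources used here, and 66.1% to 68.3% of low nonzero counts were even numbers, so reads may not be independent molecules. *Itgam* (CD11b) was at 42571 to 54211 normalized reads in Mye-/- and 41570 to 55474 in fl/fl, and *Adgre1* (F4/80) at 5428 to 7801 in Mye-/- and 4685 to 6178 in fl/fl, so the genes of the sort were present in every library. The 6 macrophage markers, these included, summed to 262485 to 328460 in Mye-/- and 327681 to 528675 in fl/fl, with 0 of 6 called (0.0196% of all features). Most of that sum was the lysozyme feature, which is labelled *Lyz2* and *Lyz1* together. It was at 169027 ± 24893 in Mye-/- (SD, n = 5) and 308919 ± 83367 in fl/fl (SD, n = 4, limma adjusted p = 0.218). Its values did not overlap, at 143570 to 204782 in Mye-/- and 221530 to 422118 in fl/fl, which was so for 3.3% of all features tested. The estimates of the other 5 markers were above 0, from 0.0032 for *Cd68* to 0.33 for *Fcgr1* on the log2 scale. *Mgll* itself was low, at 30.4, 46.6, 5.93, 42.7 and 0 in the Mye-/- libraries and 18.6, 0, 106 and 22.8 in the fl/fl libraries, and it could not check the genotype labels at this depth. The samples are whole sorts, so fewer cells of a type and less RNA per cell cannot be told apart. The labels do not say whether each library is 1 mouse, and p-values measure the spread between these 9 libraries.

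None of the 8 receptors passed the test of a difference between the genotypes. In limma's moderated test on log2(normalized value + 1), 0 of 8 passed an adjusted p of 0.05, where 3 of 15288 features did (0.0196%). At an unadjusted p under 0.05 the receptors also counted 0 of 8, where 10.5% of all features passed. The values of the genotypes overlapped for all 8 receptors, and did not overlap for 3.3% of all features tested. On whole reads, 0 of 8 passed with edgeR, where 0.0131% of features passed, and 0 of 8 with limma-voom, where 0.0523% passed. DESeq2 gave an adjusted p for 6 receptors and called 0 of them, where 2.12% of features passed. The estimates were above 0 for 7 receptors and below 0 for 1, and their median was 0.21 on the log2 scale. Over all features the median was 0.06, and 54.6% were above 0.

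The levels of the receptors spanned more than 3 orders of magnitude per length, and the genotypes shared that order. Normalized reads per kilobase of annotated exon averaged 13856 ± 2922 for *Cxcr4* (SD, n = 9), 7557 ± 1771 for *Ccr1*, 3439 ± 367 for *Ccr2* and 2469 ± 497 for the *Fpr2* feature. They averaged 927 ± 251 for *Cx3cr1*, 622 ± 186 for *Fpr1*, 57.4 ± 20.6 for *S1pr1* and 8.52 ± 10.6 for *Cxcr2*. Of the neighbours in this order, 4 pairs had overlapping ranges, namely *Cxcr4* and *Ccr1*, *Ccr2* and *Fpr2*, *Cx3cr1* and *Fpr1*, and *S1pr1* and *Cxcr2*. The *Fpr2* feature covers a further gene, *Fpr3*, while its length is that of *Fpr2* alone, so its level per length is an upper value. Within a library, *Cxcr4* was above *Ccr1* in 9 of 9, whereas each of the other 3 pairs kept its order in 8 of 9. The order was the same with the length of the longest coding transcript, which puts *Ccr2* at 4058 ± 433 and *Fpr2* at 2825 ± 568 per kilobase. Among 43 receptors of this kind that could be placed on the scale, *Cxcr4* ranked 1, *Ccr1* ranked 3, *Ccr2* ranked 6, the *Fpr2* feature 8, *Cx3cr1* 10, *Fpr1* 12, *S1pr1* 20 and *Cxcr2* 27. These ranks are by the mean over libraries, and ranges of neighbours overlapped here too. *Cxcr4* ran from 8717 to 17637 and *Ccrl2*, ranked 2, from 5809 to 18730. *Ccr2* ran from 2568 to 3891 and *C5ar1*, ranked 5, from 2318 to 5412.

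**Figure D1:**
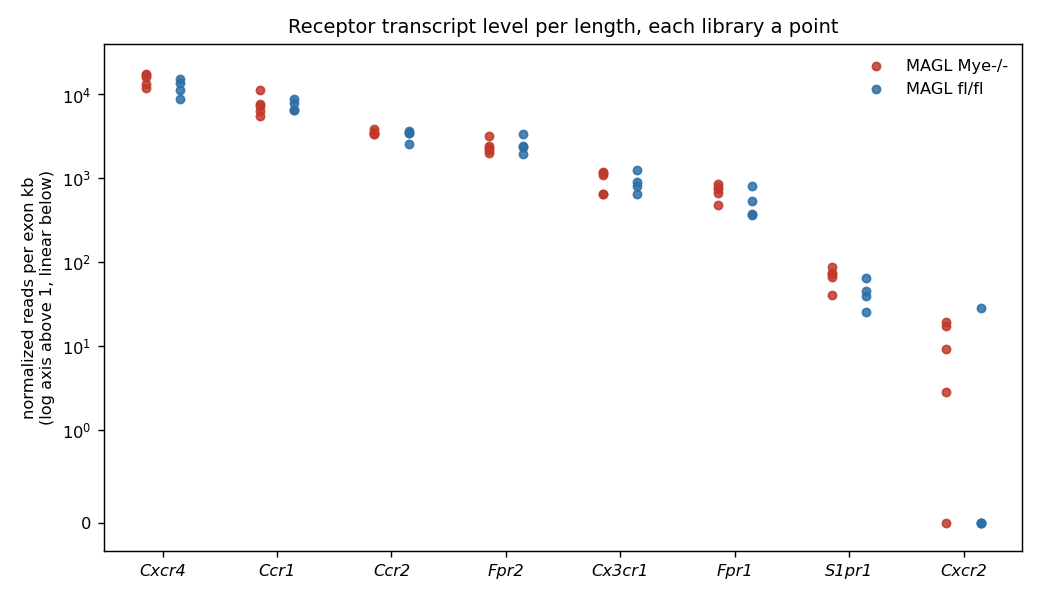
Normalized reads per kilobase of annotated exon (log axis above 1, linear below) of the 8 receptors, with each library as a point, Mye-/- left and fl/fl right. *Cxcr4* averaged 13856 and *Cxcr2* 8.52, and the points of the genotypes overlap for each gene.

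The ends of that order, *Cxcr4* and *Cxcr2*, lie on chromosome 1, and the 2 formyl peptide receptor genes lie next to each other on chromosome 17 and are read in opposite directions. The 250 bases before the start site are shown for these 4 genes, as the highest, the lowest and the neighbouring pair, from RefSeq on GRCm38.p6 (the assembly of mm10), each 5′ to 3′ on the gene's own strand. They are chr1:128592300-128592549 (minus strand) for *Cxcr4*, chr1:74153744-74153993 (plus) for *Cxcr2*, chr17:17883940-17884189 (minus) for *Fpr1* and chr17:17887574-17887823 (plus) for *Fpr2*. RefSeq windows matched 7 of the 8 receptors, all but *S1pr1*. Capitals mark matches on either strand to 4 motifs, which may overlap: the core promoter element TATAAA, the Sp1-type element GGGCGG, the Kruppel-like factor element CACCC, and the motif GAGGAA, which is part of many PU.1 sites.
Cxcr4: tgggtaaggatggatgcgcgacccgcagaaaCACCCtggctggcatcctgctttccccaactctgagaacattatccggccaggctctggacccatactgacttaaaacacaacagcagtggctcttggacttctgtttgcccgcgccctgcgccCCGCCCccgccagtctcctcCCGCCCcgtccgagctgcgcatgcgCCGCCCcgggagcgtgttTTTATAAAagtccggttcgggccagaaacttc
Cxcr2: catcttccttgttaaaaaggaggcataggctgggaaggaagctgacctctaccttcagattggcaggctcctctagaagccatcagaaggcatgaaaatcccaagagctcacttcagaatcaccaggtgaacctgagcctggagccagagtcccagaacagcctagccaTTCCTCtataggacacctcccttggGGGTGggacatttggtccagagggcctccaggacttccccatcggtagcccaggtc
Fpr1: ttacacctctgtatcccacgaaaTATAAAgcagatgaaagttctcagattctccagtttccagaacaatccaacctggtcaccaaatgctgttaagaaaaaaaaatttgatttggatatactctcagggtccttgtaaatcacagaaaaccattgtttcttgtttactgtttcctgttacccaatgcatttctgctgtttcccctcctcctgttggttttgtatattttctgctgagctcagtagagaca
Fpr2: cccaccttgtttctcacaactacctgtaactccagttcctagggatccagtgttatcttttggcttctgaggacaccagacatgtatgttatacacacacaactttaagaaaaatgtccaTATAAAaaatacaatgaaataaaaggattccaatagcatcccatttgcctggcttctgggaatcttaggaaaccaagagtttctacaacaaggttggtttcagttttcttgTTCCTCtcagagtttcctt
The *Cxcr4* window held 3 GGGCGG matches, 1 CACCC and 2 overlapping TATAAA matches, on opposite strands. The *Cxcr2* window held 1 CACCC and 1 GAGGAA, the *Fpr1* window 1 TATAAA, and the *Fpr2* window 1 TATAAA and 1 GAGGAA. Of the 7 receptor windows, *Cxcr4* was the sole one with GGGCGG. Among all 32851 windows of this length, 12.4% held TATAAA, 32.7% GGGCGG, 52.0% CACCC and 23.3% GAGGAA. GC content was 61.2% for *Cxcr4*, 54.4% for *Cxcr2*, 38.4% for *Fpr1* and 38.8% for *Fpr2*, against a median of 52.4% over all windows. These are descriptions of sequence and were not tied to any measured binding.

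*Ccr2*, the receptor for CCL2 and CCL7, was the steadiest of the receptors (chr9:124101949-124113557, mm10, plus strand). It was at 22800, 23365, 24346, 26303 and 22792 normalized reads in the Mye-/- libraries, against 17356, 23435, 23759 and 25053 in the fl/fl libraries. Library S1 of fl/fl was the lowest of the 9, and the other 8 lay within a narrow band in which the genotypes overlapped. The means were 23921 ± 1474 in Mye-/- (SD, n = 5) and 22401 ± 3435 in fl/fl (SD, n = 4). The log2 fold change was 0.11 ± 0.13 (SE, limma adjusted p = 0.819). The 95% interval of the fold ran from 0.886 to 1.31. The SD of *Ccr2* within genotypes was 0.17 on the log2 scale, and 9.59% of the 7198 features with a mean of at least 500 varied less. Without S1 and S3 of fl/fl the estimate was -0.03.

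*Cx3cr1*, the receptor for CX3CL1 (chr9:120048683-120068297, minus strand), varied more among libraries of 1 genotype, with a within-genotype SD of 0.43 on the log2 scale. It was at 2902, 2938, 4932, 5319 and 5143 normalized reads in the Mye-/- libraries, against 2921, 3667, 5727 and 4044 in the fl/fl libraries. The lowest values of the genotypes nearly coincide, and the highest library was S4 of fl/fl. The means were 4247 ± 1219 in Mye-/- and 4090 ± 1187 in fl/fl, a log2 fold change of 0.04 ± 0.22 (SE, limma adjusted p = 0.962), with a fold interval of 0.753 to 1.41. Among 11-week-old mice the estimate was -0.04, and without S1 and S3 of fl/fl it was -0.23. The ratio of *Ccr2* to *Cx3cr1* reads was 7.86, 7.95, 4.94, 4.95 and 4.43 in the Mye-/- libraries, against 5.94, 6.39, 4.15 and 6.20 in the fl/fl libraries. Libraries S8 and S9 thus had the highest ratios, and the other 3 Mye-/- libraries lay within the fl/fl range.

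*Ccr1*, a receptor for CCL3, CCL5 and other CC chemokines (chr9:123962124-123968693, minus strand), had an estimate of no difference and a wide spread in Mye-/-. It was at 32448, 21656, 15535, 20491 and 18134 normalized reads in the Mye-/- libraries, against 18528, 22242, 18356 and 25289 in the fl/fl libraries. The highest and the lowest of the 9 libraries, S8 and S10, were Mye-/-. The means were 21653 ± 6475 in Mye-/- and 21104 ± 3316 in fl/fl, a log2 fold change of 0.00 ± 0.18 (SE, limma adjusted p = 0.997), with a fold interval of 0.773 to 1.30. Without S8 the estimate was -0.15, and among 11-week-old mice, a comparison of 2 Mye-/- with 4 fl/fl libraries that keeps S8, it was 0.21. Markers of Ly6C-high monocytes moved with it in S8: the 6 markers summed to 683629 normalized reads there, against 394352 to 492144 in the other Mye-/- libraries and 371885 to 578964 in fl/fl. Their part in the *Ccr1* value was not tested.

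**Figure D2:**
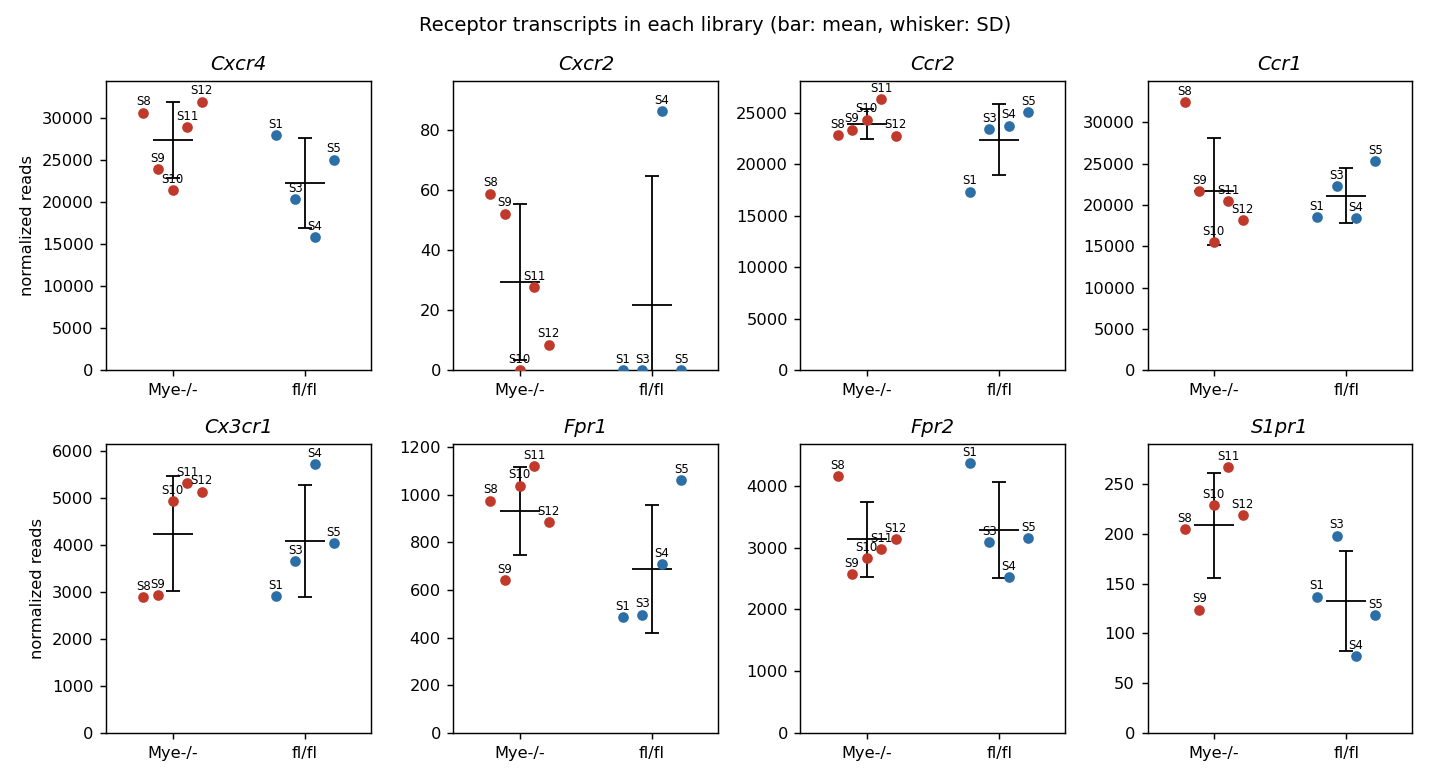
Normalized reads of each receptor (linear axis from 0) in each library, Mye-/- left and fl/fl right, with the mean and SD as bar and whisker (whiskers are cut at 0). The genotypes overlap in all 8 panels, and S8 stands highest for Ccr1 at 32448.

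*Cxcr4*, the receptor for CXCL12 (chr1:128588199-128592299, minus strand), had the highest level per length. It was at 30569, 23830, 21374, 28856 and 31889 normalized reads in the Mye-/- libraries, against 27875, 20324, 15760 and 24991 in the fl/fl libraries. Of the Mye-/- libraries 3 lay above every fl/fl library, and 2 fl/fl libraries lay below every Mye-/- library. The means were 27304 ± 4509 in Mye-/- and 22237 ± 5322 in fl/fl, a log2 fold change of 0.31 ± 0.17 (SE, limma adjusted p = 0.536), with a fold interval of 0.971 to 1.59. The estimate was above 0 in all 24 alternatives, from 0.16 to 0.52, and passed in none of them. Its highest value, 0.52, came from 11-week-old mice or with age as a covariate (limma adjusted p = 0.970 among 11-week-old mice). These 2 settings must give the same estimate here, because all fl/fl mice were 11 weeks old.

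*Cxcr2*, the receptor for CXCL1 and CXCL2 (chr1:74153988-74161246, plus strand), was low, with no reads in 4 of the 9 libraries. It was at 58.8, 52.2, 0, 27.8 and 8.54 normalized reads in the Mye-/- libraries, from 58, 65, 0, 26 and 10 reads, against 0, 0, 86.4 and 0 in the fl/fl libraries, from 0, 0, 99 and 0 reads. Reads were present in 4 of 5 Mye-/- libraries and in 1 of 4 fl/fl libraries, and that fl/fl library, S4, held the most. A count of 0 allows up to 3 reads, which is 2.54 normalized reads in S10 and 3.48, 3.58 and 2.64 in S1, S3 and S5, for counting error alone. The limma log2 fold change of 2.34 ± 1.91 (SE, adjusted p = 0.701) depends on the pseudocount: it was 2.86 with 0.5 and 0.95 with 8, and edgeR gave 0.45. Of 12 markers of neutrophils, which carry this receptor, 7 had a mean of at least 50, *Stfa2l1* was at 0 in every library and *Ly6g* in all but S3 of fl/fl, where it was at 1.19. The list summed to 20326 to 43536 normalized reads in Mye-/- and 30756 to 52784 in fl/fl, led by *S100a8*, which monocytes also express. The next were *Mmp8*, *S100a9* and *Csf3r*, at means of 5149, 4203 and 3879 over all libraries. *S100a9* had a log2 fold change of -1.31 ± 0.33 and *Csf3r* one of 0.46 ± 0.17 (SE, limma adjusted p = 0.218 and 0.361). Of the 12 markers 6 were tested and 0 passed (0.0196% of all features), and their part in the *Cxcr2* values was not tested.

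*Fpr1*, the high-affinity formyl peptide receptor (chr17:17876488-17883941, minus strand), was at 976, 643, 1038, 1122 and 885 normalized reads in the Mye-/- libraries. In the fl/fl libraries it was at 485, 497, 709 and 1061. Libraries S1 and S3 of fl/fl lay below every Mye-/- library, whereas S5 lay among the highest. The means were 933 ± 184 in Mye-/- and 688 ± 269 in fl/fl, a log2 fold change of 0.49 ± 0.27 (SE, limma adjusted p = 0.546), with a fold interval of 0.942 to 2.09. The estimate moved with single libraries in both directions. It was 0.08 without S1 and S3 (limma adjusted p = 0.955), 0.35 without S1 alone and 0.36 without S3 alone, but 0.72 without S5 of fl/fl (limma adjusted p = 0.274) and 0.62 without S9 of Mye-/- (limma adjusted p = 0.618).

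The *Fpr2* feature (chr17:17887822-17971677, plus strand) covers more than *Fpr2*, a receptor for formyl peptides, annexin A1 and serum amyloid A. In GENCODE M21 the gene *Fpr2* runs from 17887824 to 17893952, and the deposited feature runs on past its end. *Fpr3*, on the same strand, is annotated from 17887852 to 17971677, so it overlaps *Fpr2* and spans most of the feature. The feature also covers pseudogenes, *Gm5966* on the same strand and *Gm7531* and *Gm7535* on the other. The longest coding transcripts of *Fpr2* and *Fpr3* were 87.4% identical over 1131 aligned bases with an identical run of 94 bases, so the feature is read here as *Fpr2* and *Fpr3* together. It was at 4153, 2576, 2831, 2975 and 3138 normalized reads in the Mye-/- libraries, against 4365, 3090, 2524 and 3151 in the fl/fl libraries. Libraries S8 of Mye-/- and S1 of fl/fl stood above the other 7 libraries. The means were 3135 ± 606 in Mye-/- and 3283 ± 775 in fl/fl, a log2 fold change of -0.06 ± 0.18 (SE, limma adjusted p = 0.934), with a fold interval of 0.742 to 1.24. Among 11-week-old mice it was 0.17, and without S1 and S3 of fl/fl 0.13. *Fpr-rs3*, *Fpr-rs4* and *Fpr-rs6*, further members of the family, were at 0 in every library.

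The neighbouring formyl peptide receptors differed in how their levels were ordered across libraries. The ratio of *Fpr2* feature to *Fpr1* reads was 4.25, 4.01, 2.73, 2.65 and 3.55 in the Mye-/- libraries, against 9.0, 6.22, 3.56 and 2.97 in the fl/fl libraries. The ratio was highest in S1 and S3 of fl/fl, and S4 and S5 of fl/fl lay within the Mye-/- range. It averaged 3.44 ± 0.73 in Mye-/- (SD, n = 5) and 5.44 ± 2.76 in fl/fl (SD, n = 4). Pearson's r of the log2 values of the pair was -0.15 over the 9 libraries, given as a description.

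**Figure D3:**
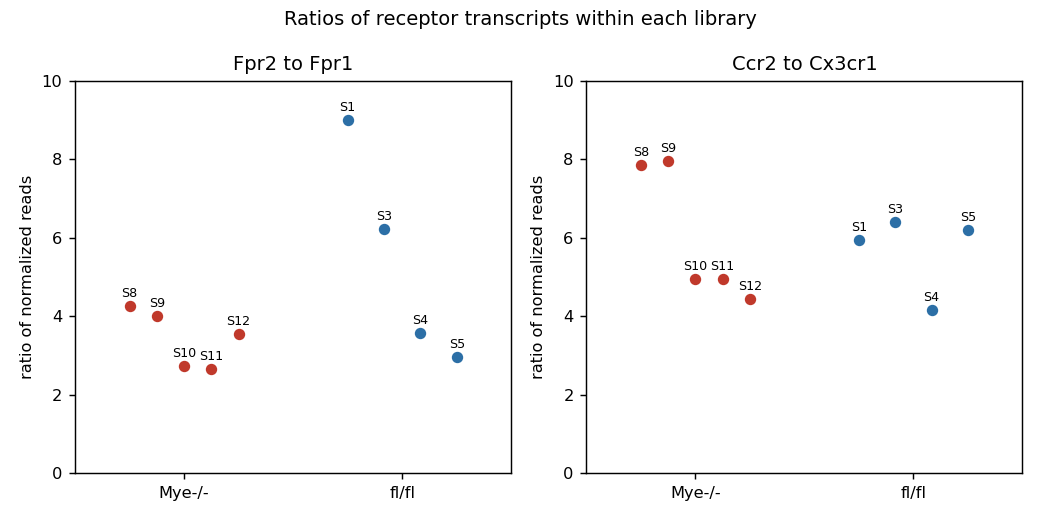
Ratio of normalized reads within each library (linear axis from 0), for the Fpr2 feature to Fpr1 and for Ccr2 to Cx3cr1, Mye-/- left and fl/fl right. The first ratio is highest in fl/fl S1 at 9.0 and S3 at 6.22, the second in Mye-/- S8 and S9.

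*S1pr1*, a receptor for sphingosine-1-phosphate (chr3:115710433-115715055, minus strand), had the highest estimate of the 7 receptors with reads in every library, and also the widest interval. It was at 205, 124, 229, 267 and 219 normalized reads in the Mye-/- libraries, from 154 to 270 reads, against 137, 198, 76.8 and 119 in the fl/fl libraries, from 88 to 166 reads. Of the Mye-/- libraries 4 lay above every fl/fl library, and S9 was within the fl/fl range. The means were 209 ± 52.8 in Mye-/- and 133 ± 50.4 in fl/fl, a log2 fold change of 0.69 ± 0.55 (SE, limma adjusted p = 0.691), with a fold interval of 0.728 to 3.55. The estimate was above 0 in all 24 alternatives, from 0.45 without S4 of fl/fl to 1.08 without S1 and S3. Of 7 markers of liver endothelium, which carries this receptor, 5 had a mean of at least 50, and *Stab2* was at 0 in all libraries but S3 of fl/fl. The 7 markers summed to 438 to 659 normalized reads in Mye-/- and 359 to 1074 in fl/fl, highest in S4, the library with the lowest *S1pr1*. Their part in the *S1pr1* value was not tested.

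**Figure D4:**
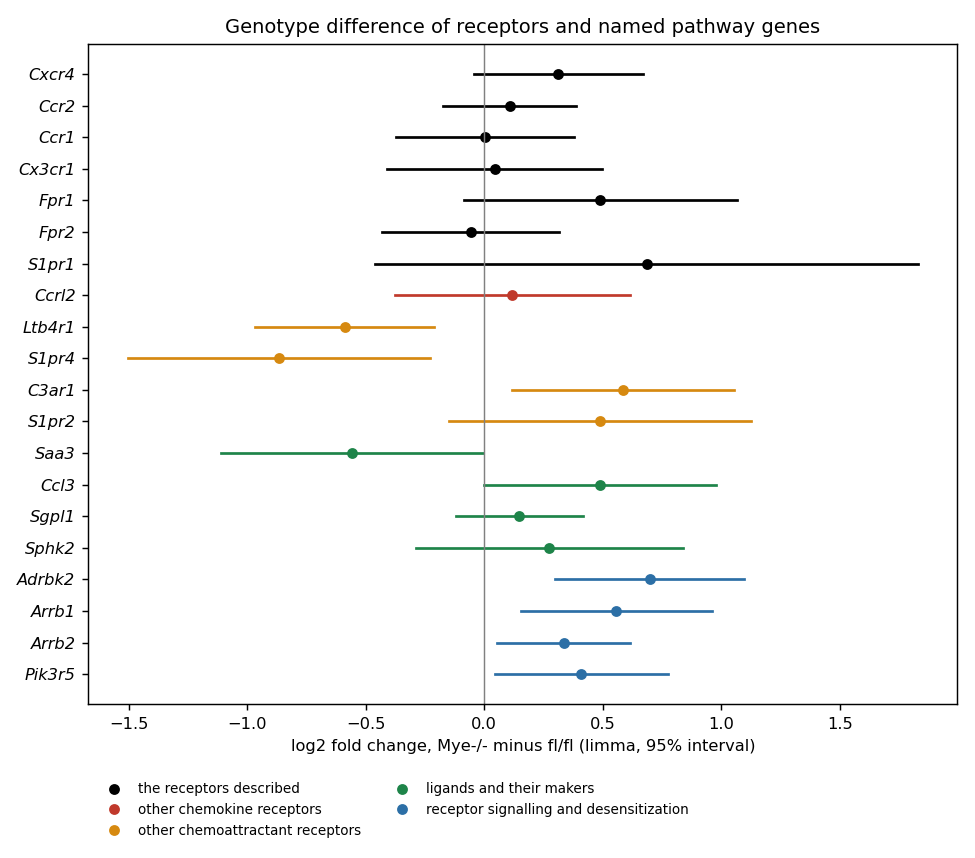
Log2 fold change, Mye-/- minus fl/fl, with its 95% interval (limma, horizontal axis) for 7 receptors and the genes of the 4 pathway lists that the text names; Cxcr2 is left out for its zeros. The intervals of the 7 receptors include 0, and no gene shown passed after adjustment over all features.

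Other receptors of the pathway gave the same count of calls. Of 19 other chemokine receptors in the table, 6 were at 0 in every library, among them *Ccr6*, *Ccr8*, *Xcr1* and *Cxcr1*. Another 6 were tested, with 0 called and 0 at an unadjusted p under 0.05, against 0.0196% and 10.5% of all features. Their median log2 fold change was 0.00. *Ccrl2*, an atypical receptor that presents chemerin, was at 30131 ± 5138 normalized reads in Mye-/- (SD, n = 5) and 29977 ± 14230 in fl/fl (SD, n = 4; limma adjusted p = 0.891).

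Of the 16 measured receptors for other chemoattractants, 12 were tested, with 0 called and a median log2 fold change of 0.16. At an unadjusted p under 0.05 were 3 of the 12, against 10.5% of all features. *Ltb4r1*, the high-affinity leukotriene B4 receptor, was at 2682, 2859, 3349, 3914 and 3269 normalized reads in the Mye-/- libraries, against 7327, 4347, 4090 and 4046 in the fl/fl libraries. Every Mye-/- value was below every fl/fl value, which was so for 1 of the 12 tested receptors of this list. It was so for 0 tested genes of the other pathway lists, and in either direction for 3.3% of all features. The log2 fold change was -0.59 ± 0.18 (SE, limma adjusted p = 0.273). *S1pr4*, a further sphingosine-1-phosphate receptor, was at 498 ± 155 in Mye-/- and 908 ± 307 in fl/fl (limma adjusted p = 0.332). *C3ar1*, the receptor for complement fragment C3a, was at 2149 ± 464 in Mye-/- and 1455 ± 426 in fl/fl (limma adjusted p = 0.367). *S1pr2* was at 1054 ± 420 in Mye-/- and 742 ± 227 in fl/fl (limma adjusted p = 0.590).

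Of 23 ligand genes and makers of ligands 18 were tested, with 0 called, 1 at an unadjusted p under 0.05 (10.5% of all features) and a median log2 fold change of 0.07. *Saa3*, a serum amyloid A protein, was at 3357 ± 1242 normalized reads in Mye-/- and 4917 ± 1727 in fl/fl (limma adjusted p = 0.470). *Ccl3*, whose product binds CCR1, was at 2351 ± 555 in Mye-/- and 1740 ± 729 in fl/fl (limma adjusted p = 0.476). *Sgpl1*, the lyase that breaks down sphingosine-1-phosphate, was at 12470 ± 382 in Mye-/- and 11361 ± 1840 in fl/fl (limma adjusted p = 0.717), and *Sphk2*, a kinase that makes it, at 1159 ± 214 in Mye-/- and 1013 ± 394 in fl/fl (limma adjusted p = 0.754). *Ccl8* and *Cxcl5* were at 0 in every library.

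The genes listed for receptor signalling and silencing, with *Klf2* and *Cd69* among them, were well measured, all 28 with a mean of at least 500. Of these 0 passed, and 5 were at an unadjusted p under 0.05, against 10.5% of all features. Estimates were above 0 for 20 and below 0 for 8, where 54.6% of all features were above 0. The median log2 fold change was 0.15, against 0.06 over all features. Below 0 were *Gnai2*, *Gnai3*, *Gnb1*, *Gnb2*, *Pik3cg*, *Rac1*, *Rac2* and *Rgs19*, from -0.21 for *Rac1* to -0.06 for *Gnai3*. The genes given next had the smallest p, and their estimates were all above 0. *Adrbk2*, which encodes the receptor kinase GRK3, was at 2244, 2703, 3611, 3836 and 3417 normalized reads in the Mye-/- libraries, against 1561, 1636, 2411 and 2168 in the fl/fl libraries. Library S8 was the sole Mye-/- library within the fl/fl range, and the log2 fold change was 0.70 ± 0.19 (SE, limma adjusted p = 0.218). The arrestins *Arrb1* and *Arrb2* had log2 fold changes of 0.56 ± 0.19 and 0.33 ± 0.13 (SE, limma adjusted p = 0.329 and 0.396). *Arrb1* was at 1806 ± 259 in Mye-/- and 1236 ± 251 in fl/fl, and *Arrb2* at 10242 ± 1535 in Mye-/- and 8059 ± 451 in fl/fl. *Pik3r5*, a regulatory subunit of the phosphoinositide 3-kinase that these receptors activate, was at 6129 ± 569 in Mye-/- and 4754 ± 1321 in fl/fl (limma adjusted p = 0.432).

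The genes whose levels were most like those of a receptor over the 9 libraries differed from receptor to receptor. Among the 6762 named features averaging 500 or more, the log2 values of *Ccr1* were most like those of *Rap1b* (Pearson's r = 0.97), *Ccl9* (0.96) and *Il1r2* (0.96). *Ccr2* was most like *Zfp160* and *Sort1* (r = 0.94 each), *Cx3cr1* most like *5031439G07Rik* (0.94) and *Cxcr4* most like *Sugp2* (0.95), with *Grk5*, a receptor kinase, ranked 3 (0.93). *Fpr1* was most like *Narf* (0.92), and the *Fpr2* feature most like *Atp1b3* (0.95) and *Cd14* (0.93). These are the highest of 6762 coefficients over the same 9 libraries, which differ in genotype and depth, and they are given as descriptions. Among the receptors themselves, *Fpr1* and *Ccr2* had the highest coefficient (0.68), and the *Fpr2* feature and *Ccr2* the lowest (-0.67). In S1 of fl/fl, *Ccr2* (17356) and *Fpr1* (485) were the lowest of the 9 libraries and the *Fpr2* feature (4365) the highest. Coefficients without S1 were not computed.

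**Figure D5:**
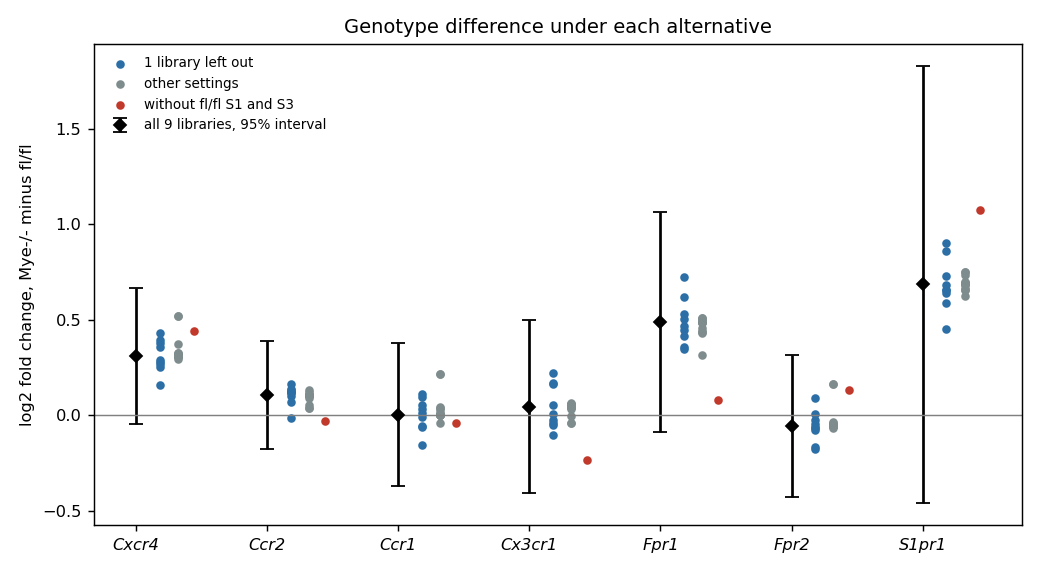
Log2 fold change, Mye-/- minus fl/fl (vertical axis), of 7 receptors with all 9 libraries (diamond, 95% interval), with 1 library left out, under other settings, and without fl/fl S1 and S3. The estimates of Cxcr4, Fpr1 and S1pr1 stay above 0 throughout, while their 95% intervals with all 9 libraries include 0. The estimate of Fpr1 falls by the most without S1 and S3, to 0.08.

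Of the markers of other cells that were tested, 0 were called, where 0.0196% of all features were, so this count does not show equal levels. Kupffer cell markers summed to 205 to 1992 normalized reads in Mye-/- and 63.3 to 567 in fl/fl, highest in S10 of Mye-/-, where *Ccr1* and *Cxcr4* were lowest among Mye-/- libraries, and *Timd4* was at 0 in all but S12. Of those tested, *Clec4f*, *Vsig4*, *Cd5l* and *Marco* had estimates above 0 and *Clec1b* one below 0. All were low, and *Clec4f* had a log2 fold change of 5.08 ± 1.54 and *Clec1b* one of -2.48 ± 1.55 (SE, limma adjusted p = 0.273 and 0.592). Hepatocyte markers summed to 1197 to 10553 in Mye-/- and 594 to 1888 in fl/fl, again highest in S10. Dendritic cell markers summed to 343 to 1212 in Mye-/- and 219 to 524 in fl/fl, with *Siglech* at 0 throughout. Of these 3 were tested, with estimates above 0, and *Flt3* was at 610 ± 280 in Mye-/- and 253 ± 178 in fl/fl (limma adjusted p = 0.299). T, NK and B cell markers summed to 81.2 to 561 in Mye-/- and 59.2 to 654 in fl/fl. Of the eosinophil markers *Epx* and *Prg2* were at 0 in every library. Platelet and erythrocyte markers summed to 2069 to 4730 in Mye-/- and 4658 to 25553 in fl/fl. Markers of Ly6C-low monocytes, led by *Nr4a1*, summed to 135834 to 150976 in Mye-/- and 111179 to 135574 in fl/fl. *Nr4a1*, an immediate-early gene, made up most of that sum, and its own values overlapped, at 126155 to 140513 in Mye-/- and 99267 to 127643 in fl/fl. Of the 6 Ly6C-low markers, *Spn*, *Pglyrp1* and *Eno3* had estimates below 0. The part of these cells in the receptor values was not tested.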

How the data were processed

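The values are a signal: the authors divided each sample's read counts by 1 DESeq size factor, without log or length correction, as the deposited header and the submitters' processing notes name it. STAR 2.4.0 and mm10 come from those notes, FAST DB gene models from the file header. Counter, strand setting and duplicate treatment are not given in the sources used here. Every nonzero value (100%) was a whole multiple of its column's smallest value, within 0.01 reads, which gave back whole reads. Features with at least 10 normalized reads in at least 4 libraries (15288) were compared, 5 Mye-/- against 4 fl/fl, by limma 3.58.1 in R 4.3.3, two-sided, on log2(value + 1) of the deposited values with the prior variance following mean level, with Benjamini-Hochberg adjustment over all of them and a threshold of 0.05. Fold changes are on that scale, and those of low genes depend on the pseudocount. Whole reads also went to edgeR 4.0.16, DESeq2 1.42.0 and limma-voom. The fits were tested on simulated data. Exon lengths, gene ends and transcripts came from GENCODE M21 (GRCm38). Alternatives were other pseudocounts, filters, scalings and priors, array weights, age, and left-out libraries. Libraries that share no replicate number were not paired. Named genes were the receptors, up to 4 per pathway list with the smallest p and a mean of at least 500, the 3 features most like each receptor, genes of the sort, and markers at 0; a gene of these lists is not reported here. *Timd4*, *Ly6g*, *Stab2*, the other markers given with values or estimates and the listed genes at 0 were named after their values were seen. So were *Klf2*, *Cd69* and the signalling genes named as below 0. The members and lists were chosen with earlier results of these data known.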

Additional observations from a re-analysis of the deposited data

Results flagged for a closer look

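Of 44 groups of 4 or 5 libraries checked, over the receptors and the named pathway genes, 4 held a library set far apart from the rest of its group by Dixon's criterion, and chance gives about 1 in 20. *Cxcr2* was at 86.4 normalized reads in S4 of fl/fl and at 0 in the other fl/fl libraries. With those at 0, any value above 0 in S4 would be flagged, so the rate of 1 in 20 does not apply to it. *Ltb4r1* was at 7327 in S1 of fl/fl, against 4347 in the next. *Sgpl1* was at 14115 in S1 of fl/fl, against 10573 in the next. *S1pr2* was at 402 in S3 of fl/fl, against 843 in the next. No group of the other 7 receptors held such a library.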

How the results depend on the processing

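No receptor passed in any of 24 alternatives. Of 186 estimates under them, 165 kept their direction and 21 turned, all for genes with estimates near 0. Both age settings, 11-week-old mice and age as a covariate, are counted there. Where both give an estimate it is the same by design, since all fl/fl mice were 11 weeks old, so they are not separate checks. *Ccr1* was at -0.038 with array weights and -0.039 without S1 and S3 of fl/fl, and at -0.15 to 0.11 with 1 library left out. *Ccr2* was at -0.031 without S1 and S3, and at -0.011 to 0.17 with 1 left out. *Cx3cr1* was at -0.039 among 11-week-old mice and with age as a covariate, -0.0036 with array weights and -0.23 without S1 and S3, and at -0.10 to 0.22 with 1 left out. The *Fpr2* feature was at 0.17 among 11-week-old mice and with age as a covariate and 0.13 without S1 and S3, and at -0.17 to 0.089 with 1 left out. *Cxcr2* gave no estimate under 6 alternatives, since it did not pass their filter. The count of all features past the threshold, 3, was less stable: 123 with DESeq2, 21 without an intensity trend, 17 with a pseudocount of 8, 9 with a robust prior or without S1 and S3, 8 with quantile normalization or limma-voom, 6 with TMM scaling, 5 with array weights, 1 among 11-week-old mice and 0 with age as a covariate. With 1 library left out it ran from 0 to 20: 0 without Mye-/- S8 or S10, 1 without Mye-/- S11, 5 without fl/fl S3 and 20 without fl/fl S5. The cause was not tested. With 0 to 99 reads per library, the limma 95% interval of the *Cxcr2* log2 fold change was wide, from -1.68 to 6.35. Its lack of a call therefore does not show equal levels, and the smallest detectable difference was not computed. No paired analysis was possible because the groups share no replicate numbers.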
